A study of Mus musculus with 6 samples.

Results

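The genes described here are 10 members of the matrix metalloproteinase (MMP) family and of the tissue inhibitors of metalloproteinases (TIMP): Mmp3, Mmp9, Mmp10, Mmp13, Mmp14, Mmp15, Mmp19, Timp1, Timp2 and Timp3. They were taken by name, as the rows of the deposited count table whose Ensembl identifiers carry these symbols in GENCODE mouse release M21, and all 10 were found among 48820 identifiers. The libraries were made from total RNA of spheroids, which are 3-dimensional cell aggregates, of 4T1, a mouse triple-negative breast cancer line, kept in serum-supplemented RPMI medium. The WT group held 3 libraries of wild-type cells and the dKO group 3 libraries of cells labelled as a double knockout of LATS1/2, the Hippo pathway kinases that restrain the coactivators YAP and TAZ. No allele, guide or clone is named in the labels, and both groups share the line, the spheroid culture and the medium. Biological replicate is the term the labels use for each library, but nothing says that separate cultures, wells or clones stand behind them. The p-values thus cover the variation among these libraries only, and that variation may be technical.

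MMPs are zinc-dependent endopeptidases that are made as inactive proenzymes and cleave collagens, laminins, fibronectin, proteoglycans and other proteins around the cell. The collagenases open fibrillar collagen, the gelatinases act on denatured collagen and basement membrane collagen, the stromelysins have broad specificity and can activate other proenzymes, and the membrane-type enzymes act at the cell surface. TIMPs bind the catalytic site of active MMPs, and in mammary carcinoma the balance of the protease and inhibitor families is studied for its part in invasion and matrix turnover.

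Library totals ran from 38194478 to 49630116 counts. Levels are given as CPM, which are counts scaled to a common library total with TMM factors, the log2 fold change is labelled dKO minus WT, and the value after its ± sign is an approximate standard error. Levels and shares are given with their SD over 3 libraries. A gene was called when its adjusted p (edgeR quasi-likelihood test, Benjamini-Hochberg over the 15807 tested genes) was under 0.05. Of the targeted genes, Lats1 was lower in the libraries labelled dKO (153 ± 6.36 CPM in WT against 50.9 ± 2.55 CPM, SD, n = 3), whereas Lats2 was higher (27.2 ± 4.01 against 77.9 ± 12.5 CPM). The level of Lats2 therefore goes against the label, an indel would be invisible in gene-level counts, and every direction below is drawn from the libraries labelled dKO. Among the mammary epithelial markers Krt8, a luminal keratin, stood at 1636 ± 150.3 CPM in WT and 1116 ± 187 CPM in libraries labelled dKO, and Epcam and Krt18 were called lower too. Krt19, Cdh1 and the basal keratin gene Krt14 were called higher, Krt14 from 14.6 ± 3.70 to 135 ± 42.9 CPM, Krt7 was not called, and Krt5, also a basal keratin gene, had 0 counts in every library. Of this list Krt8 was named by its level, and the rest were added after their values were seen. In bulk samples of this kind, fewer cells of a type and less RNA per cell cannot be told apart.

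Of the 10 genes, all passed the filter on low counts. In libraries labelled dKO, 8 were called lower (28.7% of all tested genes were called lower), 1 was called higher (28.6% of all tested genes), and 1 was not called. The share called in either direction was 57.3% of all tested genes, so a single call is common in this comparison. At least a 2-fold fall together with a call was found for 6 of the 10 genes, against 14.0% of all tested genes. The WT and dKO values did not overlap for 9 of the 10 genes, against 65.6% of all tested genes. The median log2 fold change of the 10 genes was -1.84, and that of all tested genes was -0.01. The 10 genes were chosen with earlier results of these data known, so these shares describe the genes and test nothing. Among family genes outside the 10, Mmp2 and Mmp12 were called higher, and Mmp1a, Mmp1b and Mmp11 were called lower.

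**Figure D1:**
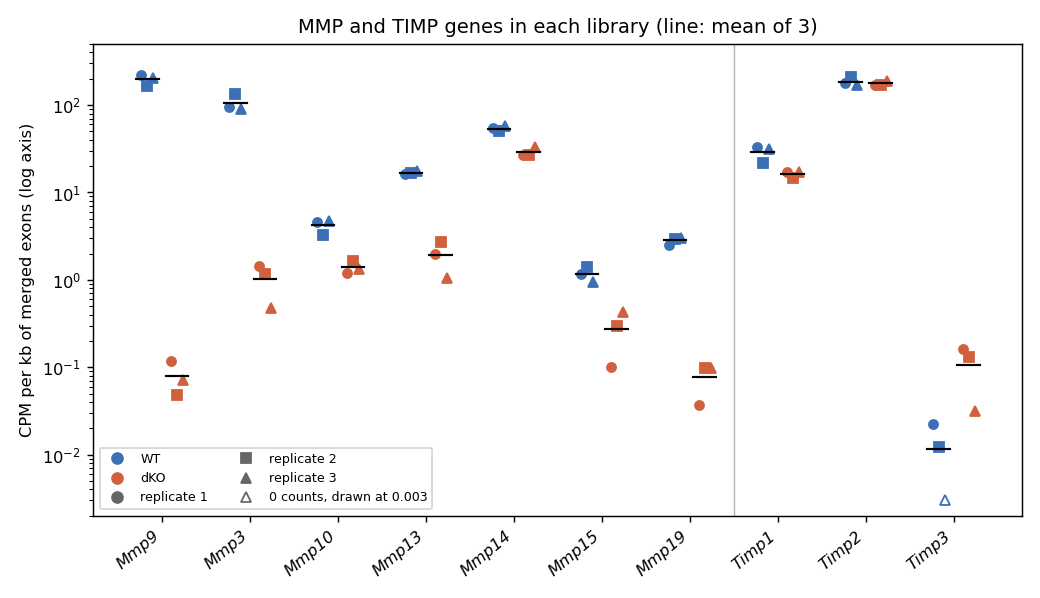
Level of each of the 10 genes in each library, in CPM per kb of merged exons on a log axis, with colour for the group, symbol shape for the replicate, a short line for the mean and an open triangle for a library with 0 counts. The TIMP genes stand to the right of the vertical line, and Mmp9 runs from 167 to 218 CPM per kb in WT and from 0.0486 to 0.118 CPM per kb in libraries labelled dKO.

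Mmp9 encodes gelatinase B, a secreted enzyme that cleaves type IV and denatured collagen. The gene (ENSMUSG00000017737, GRCm38 chromosome 2, 164940780 to 164955850, plus strand) had 772, 590.4 and 729 CPM in WT replicates 1 to 3, and 0.419, 0.172 and 0.256 CPM in dKO replicates 1 to 3. Every WT library was therefore far above every library labelled dKO, in which 16, 7 and 11 counts remained. On the log2 scale Mmp9 fell by 11.27 ± 0.22 (edgeR adjusted p = 1.13e-08), with a 95% interval of -11.78 to -10.76. A read pair may add up to 4 counts in this table. Taken as read pairs and rounded, the summed counts were 23923 in WT and 8 in libraries labelled dKO. Their ratio was 2680 with a 95% counting interval of 1360 to 6207, against 2470 for the ratio of mean CPM. Among the 2478 tested genes with a WT mean of at least 100 CPM, the fall of Mmp9 ranked 3 and that of Mmp3 ranked 12.

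Mmp2, which encodes gelatinase A and is not among the 10 genes, moved the opposite way from a low level. It had 0.243, 0.0744 and 0.0647 CPM in WT and 1.44, 2.19 and 1.44 CPM in libraries labelled dKO. The rise of 3.67 ± 0.61 on the log2 scale was called (edgeR adjusted p = 0.000837), and as read pairs the ratio was 14.5 with a 95% counting interval of 5.34 to 55.2.

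Mmp3 encodes stromelysin 1, which cleaves proteoglycans, laminin and fibronectin and can activate other pro-MMPs. The gene (ENSMUSG00000043613, chromosome 9, 7445822 to 7455975, plus strand) had 173, 239 and 164 CPM in the WT libraries and 2.59, 2.11 and 0.861 CPM in those labelled dKO. The groups were separated by far more than their spread, although dKO replicate 3 stood below the other two. The difference on the log2 scale was -6.71 ± 0.38 (edgeR adjusted p = 8.98e-06).

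Mmp10 encodes stromelysin 2, a close relative of stromelysin 1. The gene (ENSMUSG00000047562, chromosome 9, 7502352 to 7510240, plus strand) had 7.83, 5.68 and 8.17 CPM in WT and 2.07, 2.83 and 2.28 CPM in libraries labelled dKO. The lowest WT value, in replicate 2, was above the highest dKO value. The mean was 3.02-fold lower, with a log2 difference of -1.59 ± 0.24 (edgeR adjusted p = 0.000491). Mmp11, the gene of stromelysin 3, was called lower too, with 54.3, 46.2 and 52.7 CPM in WT and 24.0, 23.1 and 33.9 CPM in libraries labelled dKO (log2 fold change -0.92 ± 0.15, edgeR adjusted p = 0.000824). Mmp11 shares 155 exon bases with Chchd10 on the other strand, a gene noted after its values were seen, which rose from 1.38 to 22.6 CPM.

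Mmp13 encodes collagenase 3, which cleaves fibrillar collagen and is best known from cartilage and bone. The gene (ENSMUSG00000050578, chromosome 9, 7272514 to 7283331, plus strand) had 43.4, 44.7 and 47.2 CPM in WT and 5.31, 7.32 and 2.82 CPM in libraries labelled dKO. The WT libraries were close together, and dKO replicate 3 was again the lowest of its group. Mmp13 was 8.75-fold lower by its means, with a log2 difference of -3.13 ± 0.30 (edgeR adjusted p = 4.55e-05).

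Both mouse counterparts of interstitial collagenase were low in WT and lower in libraries labelled dKO. Mmp1a, which GENCODE M21 lists as a polymorphic pseudogene, had 4.28, 2.16 and 4.12 CPM in WT and 0 counts in each library labelled dKO. Against a floor of 12 counts, or 3 read pairs, per library this was at least 11.9-fold lower (edgeR adjusted p = 5.72e-05). Mmp1b fell from 2.35 ± 0.391 to 0.447 ± 0.317 CPM (log2 fold change -2.40 ± 0.60, edgeR adjusted p = 0.00792). Mmp1a and Mmp1b are similar copies, and reads may be split between them.

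Mmp14 encodes the membrane-anchored MT1-MMP, which degrades pericellular collagen and activates pro-MMP2 in a complex with TIMP2. The gene (ENSMUSG00000000957, chromosome 14, 54431612 to 54445364, plus strand) had 322, 299 and 339.5 CPM in WT and 158, 161 and 197 CPM in libraries labelled dKO. The groups did not overlap, and the mean was 1.86-fold lower. On the log2 scale Mmp14 fell by 0.90 ± 0.10 (edgeR adjusted p = 6.52e-05), the smallest fall among the 7 MMP members.

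Mmp15 encodes MT2-MMP, a second membrane-type enzyme. The gene (ENSMUSG00000031790, chromosome 8, 95352268 to 95375080, plus strand) had 6.22, 7.57 and 5.11 CPM in WT and 0.550, 1.60 and 2.30 CPM in libraries labelled dKO. The groups did not overlap, but the dKO values spread widely, with replicate 1 at the bottom. On the log2 scale the fall was called at -2.08 ± 0.45 (edgeR adjusted p = 0.00363).

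Mmp19 encodes a secreted MMP that acts on basement membrane proteins and stands apart from the classical subgroups. The gene (ENSMUSG00000025355, chromosome 10, 128790910 to 128800824, plus strand) had 8.92, 10.5 and 10.5 CPM in WT and 0.131, 0.344 and 0.349 CPM in libraries labelled dKO, where 5, 14 and 15 counts remained. All WT libraries lay well above the others. Mmp19 fell by 5.16 ± 0.34 on the log2 scale (edgeR adjusted p = 3.17e-06), and as read pairs the ratio was 37.9 with a 95% counting interval of 19.0 to 88.4. Mmp19 shares 789 exon bases with Tmem198b on the other strand, a partner noted after its values were seen, which fell from 26.6 ± 2.01 to 11.9 ± 1.42 CPM. Whether strand was used in counting is not given in the sources used here, so reads of such partners cannot be told apart.

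Timp1 encodes a secreted inhibitor that binds pro-MMP9 as well as active MMPs. The gene (ENSMUSG00000001131, chromosome X, 20870166 to 20874735, plus strand) had 29.1, 19.4 and 28.0 CPM in WT and 15.2, 13.02 and 15.4 CPM in libraries labelled dKO. WT replicate 2 was the closest to the dKO values and still above them. The mean was 1.75-fold lower, with a log2 difference of -0.81 ± 0.17 (edgeR adjusted p = 0.00298). Tested against a change of 1.5-fold in place of no change, Timp1 was not called (edgeR glmTreat, adjusted p = 0.107). Timp1 lies within Syn1 on the other strand and shares 0 exon bases with it.

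Timp2 encodes the inhibitor that takes part in pro-MMP2 activation by MT1-MMP, and it was the most abundant of the 3 inhibitors. The gene (ENSMUSG00000017466, chromosome 11, 118301069 to 118355740, minus strand) had 690.2, 809 and 659.6 CPM in WT and 669.6, 664 and 732 CPM in libraries labelled dKO. The groups overlapped. The log2 fold change of -0.06 ± 0.09 did not pass the test (edgeR adjusted p = 0.573), and its 95% interval ran from -0.27 to 0.14.

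Timp3 encodes a matrix-bound inhibitor that also inhibits ADAM and ADAMTS proteases. The gene (ENSMUSG00000020044, chromosome 10, 86300372 to 86349506, plus strand) had only 9, 4 and 0 counts in WT and 50, 43 and 11 counts in libraries labelled dKO. In CPM this was 0.182, 0.0992 and 0 against 1.31, 1.06 and 0.256, so the groups did not overlap but dKO replicate 3 came close to WT replicate 1. The rise of 3.16 ± 1.00 on the log2 scale was called (edgeR adjusted p = 0.0236), and as read pairs the ratio was 9.67 with a 95% counting interval of 2.96 to 49.9. The call was lost without WT replicate 2 (edgeR adjusted p = 0.0671), without dKO replicate 1 (0.0933) or without dKO replicate 2 (0.0724), and without WT replicate 1 the log2 value was 4.11. Timp3 lies within Syn3, a neuronal gene on the other strand noted after its values were seen, and shares 1733 of its 8144 exon bases with it. Syn3 rose from 0.662 ± 0.269 to 3.42 ± 0.933 CPM, and its part in the counts of Timp3 was not tested.

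The whole family, with 23 MMP genes and 4 TIMP genes on a list that includes the 10 members, had 18 genes that passed the filter. Of these, 11 were called lower (28.7% of all tested genes), 3 higher (28.6% of all tested genes) and 4 were not called, and the median log2 fold change was -0.91. The third rise, besides Timp3 and Mmp2, was that of Mmp12, the macrophage metalloelastase, which had 0, 0 and 0.151 CPM in WT and 1.49, 1.94 and 2.72 CPM in libraries labelled dKO (log2 fold change 5.25 ± 0.96, edgeR adjusted p = 0.00142). As read pairs the ratio for Mmp12 was 35.2 with a 95% counting interval of 9.34 to 297. Mmp23, Mmp24 and Mmp28 did not pass the test, at log2 values of 0.95 ± 0.53, 0.17 ± 0.49 and -0.24 ± 0.66 (edgeR adjusted p = 0.158, 0.794 and 0.783). The remaining 9 genes were not tested: Mmp7, Mmp8, Mmp16, Mmp17, Mmp21 and Timp4 had 0 counts throughout, and Mmp20, Mmp25 and Mmp27 reached at most 7 counts in a library.

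**Figure D2:**
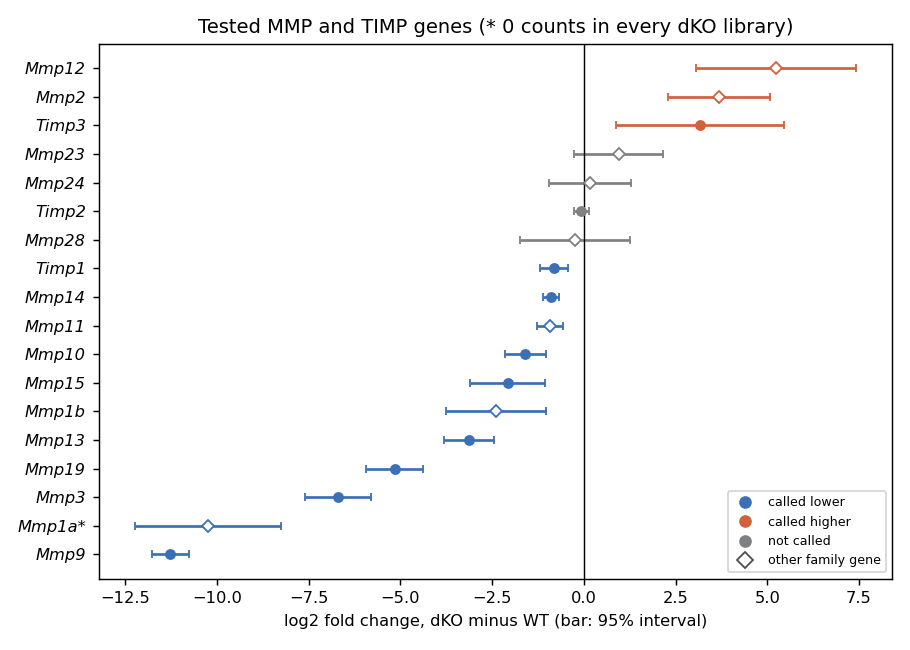
Log2 fold change with its 95% interval for the 18 tested MMP and TIMP genes, filled circles for the 10 members and open diamonds for other family genes, coloured by call. The estimates run from the fall of Mmp9 at -11.27 to the rise of Mmp12 at 5.25, and the interval of Timp2 spans 0. The fitted value of Mmp1a, which had 0 counts in every library labelled dKO, depends on the prior count and is not a bound.

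Mmp3, Mmp10 and Mmp13 lie in the MMP gene cluster of chromosome 9, where 10 MMP genes fill 427 kb between 7272514 and 7699585. Of these 10 genes, 6 were tested, and Mmp13, Mmp1b, Mmp3, Mmp1a and Mmp10 were called lower whereas Mmp12 was called higher. Mmp12 and Mmp1b neighbour each other on opposite strands and share 157 exon bases. The tested genes flanking the cluster, taken for their position, had log2 fold changes between -1.38 and 0.58, and of these only Gm10709, a pseudogene, was not called. Dcun1d5, on the Mmp13 side, was higher by 0.58 ± 0.08 (edgeR adjusted p = 0.000206). On the far side Tmem123 was higher by 0.36 ± 0.11 (0.0177), and Birc2 at -0.28 ± 0.08 (0.0140), Birc3 at -1.38 ± 0.37 (0.0114) and Yap1 at -0.19 ± 0.07 (0.0390) were lower. Mmp9, the MMP gene with the highest WT level per length, lies outside the cluster, on chromosome 2.

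**Figure D3:**
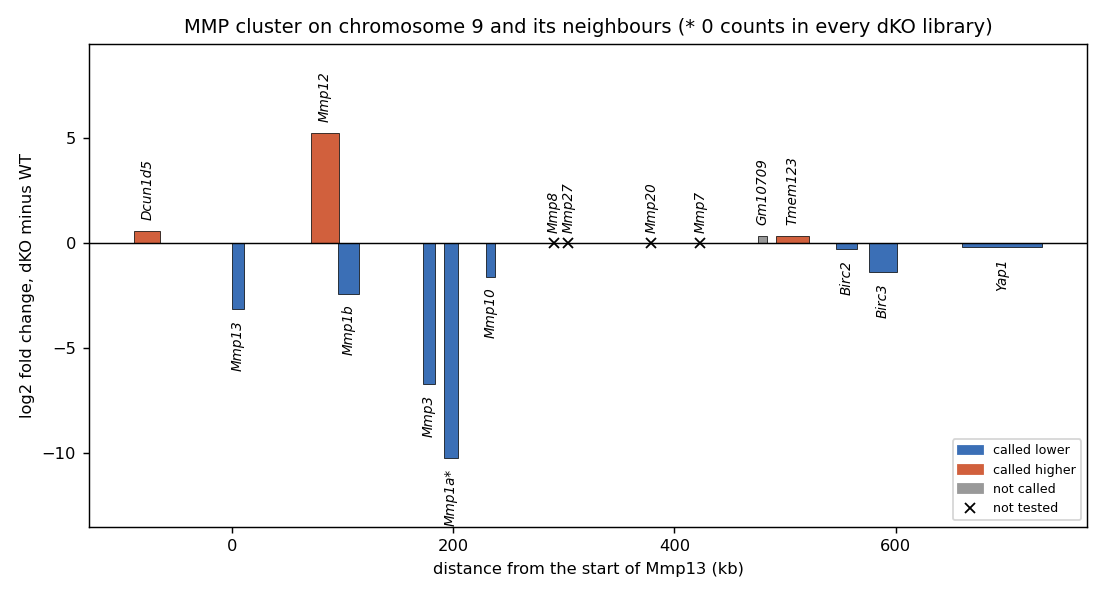
Log2 fold change of each gene in the chromosome 9 cluster and beside it, drawn at its distance in kb from the start of Mmp13, with the width of a bar giving the length of the gene. The 5 falls within the cluster stand beside the rise of Mmp12 at 5.25, and crosses mark genes that were not tested. The bar of Mmp1a is a fitted value that depends on the prior count.

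Promoter sequences are shown for these genes because several MMP promoters are described as holding a site for AP-1, the dimer of FOS and JUN family factors. The 150 bases before the RefSeq start (GRCm38.p6) are printed 5′ to 3′, with any match to the AP-1 motif TGANTCA in capitals. Mmp3, Mmp10 and Mmp13 are the members of the cluster, Mmp12 is the cluster gene called higher and is shown at the second of its annotated starts, and Mmp14 and Timp1 are members elsewhere. The first start of Mmp12 holds no match to this motif, and the second is shown because it does. The windows are chr9:7445672-7445821 for Mmp3, chr9:7502192-7502341 for Mmp10, chr9:7272364-7272513 for Mmp13, chr9:7347224-7347373 for Mmp12, chr14:54431448-54431597 for Mmp14 and chrX:20870016-20870165 for Timp1, all on the plus strand.
Mmp3: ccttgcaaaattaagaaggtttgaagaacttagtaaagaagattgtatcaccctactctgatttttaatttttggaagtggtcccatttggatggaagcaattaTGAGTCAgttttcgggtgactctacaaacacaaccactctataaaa
Mmp10: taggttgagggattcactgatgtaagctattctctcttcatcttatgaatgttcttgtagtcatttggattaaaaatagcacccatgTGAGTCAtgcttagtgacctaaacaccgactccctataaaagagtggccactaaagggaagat
Mmp13: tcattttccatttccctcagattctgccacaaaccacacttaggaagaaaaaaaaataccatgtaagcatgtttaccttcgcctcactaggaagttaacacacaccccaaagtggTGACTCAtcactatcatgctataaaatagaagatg
Mmp12: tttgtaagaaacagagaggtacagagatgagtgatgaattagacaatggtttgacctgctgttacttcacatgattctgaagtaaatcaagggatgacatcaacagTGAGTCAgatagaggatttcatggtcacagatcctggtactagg
Mmp14: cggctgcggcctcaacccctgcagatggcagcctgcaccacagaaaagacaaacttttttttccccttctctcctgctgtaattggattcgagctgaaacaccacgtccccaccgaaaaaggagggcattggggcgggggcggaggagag
Timp1: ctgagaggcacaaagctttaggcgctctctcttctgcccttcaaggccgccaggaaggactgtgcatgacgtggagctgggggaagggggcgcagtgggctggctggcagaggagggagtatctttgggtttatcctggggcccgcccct

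Within the 250 bases before each start, on both strands, the letters TGANTCA were found in Mmp3 (first base at -46, with -1 the last base before the start), Mmp10 (-63) and Mmp13 (-35). RefSeq entries matched 8 of the 10 members and 22 of the 27 family genes, and these 3 were the members with a match. Counted by gene, with a match at any annotated start, 8 of 10 genes in the cluster held it, which besides the members were Mmp1a, Mmp1b, Mmp12, Mmp20 and Mmp7. Mmp12 and Mmp7 held it at 1 start each and lacked it at the other. Of the 12 family genes outside the cluster that had an entry, 0 held it. Among all 32851 promoter windows of this length, 6.75% held it. The cluster genes with these letters included Mmp12, which rose, and Mmp20 and Mmp7, which were too low to test.

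The other motifs searched were CATTCC (TEAD, the factors that YAP and TAZ bind), AGGAAG (PEA3 ETS factors), TGTGGT (RUNX) and GGGANTTCC (NF-kB), of which the TEAD, PEA3 and NF-kB letters can share a GGAA core. CATTCC was found in 1 member, Timp1 at -247, against 12.6% of all windows. AGGAAG was found in 5 of the 8 members against 29.5%, TGTGGT in 2 against 14.05%, and GGGANTTCC in 0 against 1.43%. A match describes these letters only and marks neither a bound site nor a cause, and the lack of a match says nothing about regulation from elsewhere.

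The factors themselves belong to a list of 30 transcription factors described for MMP genes, all of which were tested. Of these, 17 were called lower (28.7% of all tested genes), 4 higher (28.6% of all tested genes) and 9 were not called. Their median log2 fold change was -0.54. The smallest adjusted p belonged to Smad3, which relays TGF-beta signals (435 ± 20.3 CPM in WT, 65.7 ± 4.57 CPM in libraries labelled dKO), to the PEA3 factor Etv4 (125 ± 1.84 and 16.1 ± 1.44 CPM) and to Runx1 (161 ± 5.47 and 43.0 ± 1.45 CPM). The AP-1 genes, picked out after their values were seen, did not move as a block. Fosl1, Jun and Junb were lower, at log2 values of -1.34 ± 0.13, -0.79 ± 0.12 and -1.32 ± 0.12 (edgeR adjusted p = 2.59e-05, 0.000541 and 2.03e-05). Fosl2 rose from 75.7 ± 3.81 to 307 ± 50.5 CPM (edgeR adjusted p = 1.76e-06). Jund rose by 0.37 ± 0.10 on the log2 scale (0.0117). Fos and Fosb did not pass the test, at 0.50 ± 0.41 and -0.53 ± 0.27 (edgeR adjusted p = 0.324 and 0.127).

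Levels can be compared between genes once divided by exon length. Per kb of merged exons, the WT order was Mmp9 at 197 ± 26.8 CPM per kb, Timp2 at 185 ± 20.3, Mmp3 at 107 ± 22.6, Mmp14 at 53.7 ± 3.45 and Timp1 at 28.7 ± 5.99 (SD, n = 3). Below them stood Mmp13 at 16.9 ± 0.723, Mmp10 at 4.20 ± 0.783, Mmp19 at 2.83 ± 0.261, Mmp15 at 1.17 ± 0.228 and Timp3 at 0.0115 ± 0.0112 CPM per kb. Among neighbours in this order, only Mmp9 and Timp2 overlapped. With the length of the longest annotated transcript in place of merged exons, Mmp14 stood at 98.9 CPM per kb in WT (92.2 to 105) and overlapped with Mmp3 (91.3 to 133), so the order of Mmp3 and Mmp14 depends on the length used.

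In libraries labelled dKO the order began with Timp2 at 177 ± 9.66 CPM per kb, Mmp14 at 28.8 ± 3.60 and Timp1 at 16.4 ± 1.504, none of which overlapped. Mmp13 at 1.93 ± 0.845, Mmp10 at 1.39 ± 0.227 and Mmp3 at 1.03 ± 0.496 CPM per kb overlapped with one another. So did Mmp15 at 0.275 ± 0.164, Timp3 at 0.107 ± 0.0675, Mmp9 at 0.0797 ± 0.0354 and Mmp19 at 0.0777 ± 0.0353, each with the next in the order, whereas Mmp3 and Mmp15 did not. Mmp9, the leading gene of the 10 in WT, was thus second from last in libraries labelled dKO.

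Summed over all 23 MMP genes, the level per kb was 417, 395 and 403 CPM per kb in WT and 42.7, 44.0 and 51.7 CPM per kb in libraries labelled dKO. Mmp9 made up 48.5% ± 5.47 of the WT sum and Mmp3 26.4% ± 6.21, whereas in libraries labelled dKO they made up 0.176% ± 0.0888 and 2.32% ± 1.26. Mmp14 went from 13.3% ± 0.764 to 62.5% ± 1.24 of the sum and Mmp11 from 4.53% ± 0.278 to 20.9% ± 2.41, while the levels of both fell. The share of Mmp13 was 4.16% ± 0.250 in WT and 4.31% ± 2.12 in libraries labelled dKO.

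The summed TIMP level was 209.9, 229.5 and 201 CPM per kb in WT and 189, 185 and 205 CPM per kb in libraries labelled dKO, and these ranges overlapped. Timp2 made up 86.4% ± 3.55 and 91.5% ± 0.582 of it. The ratio of the MMP sum to the TIMP sum was 1.99, 1.72 and 2.01 in WT and 0.226, 0.237 and 0.252 in libraries labelled dKO. Without Mmp9 the ratio was 0.976 ± 0.0231 in WT and 0.238 ± 0.0131 in libraries labelled dKO. The pair of Mmp9 and its binding partner Timp1 stood at a ratio of 6.94 ± 0.608 in WT and 0.00479 ± 0.00187 in libraries labelled dKO, and Mmp14 to Timp2 at 0.294 ± 0.0486 and 0.163 ± 0.0113. These are ratios of RNA levels per length, given as a description, and they depend on the lengths used: with the longest annotated transcript in place of merged exons the MMP to TIMP ratio was 2.15 in WT and 0.363 in libraries labelled dKO. The ratio of Mmp14 to Timp2 was then 0.516 ± 0.0851 in WT and 0.285 ± 0.0198 in libraries labelled dKO.

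**Figure D4:**
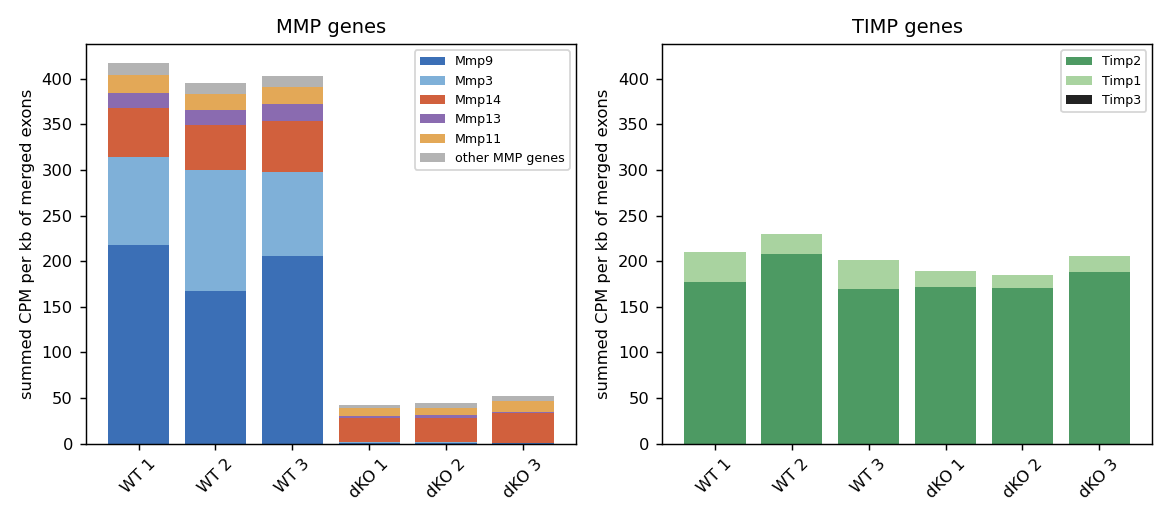
Summed level of the MMP genes (left) and the TIMP genes (right) in each library, stacked by gene, in CPM per kb of merged exons on a common scale starting at 0. The MMP sum is 395 to 417 CPM per kb in WT and 42.7 to 51.7 CPM per kb in libraries labelled dKO, and the TIMP sums overlap.

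A list of 31 genes for activation, surface anchoring, clearance and non-TIMP inhibition of MMPs had 22 tested genes. Of these, 13 were called lower (28.7% of all tested genes), 3 higher (28.6% of all tested genes) and 6 were not called. The median log2 fold change was -0.80. Reck, a membrane-anchored inhibitor of several MMPs, fell from 10.5 ± 3.10 to 3.03 ± 0.998 CPM (log2 fold change -1.79 ± 0.31, edgeR adjusted p = 0.00098). Lcn2, whose human product is described in a complex with MMP9, had 327, 290.2 and 374 CPM in WT. In libraries labelled dKO it had 0.471, 1.70 and 4.35 CPM (log2 fold change -7.22 ± 0.70, edgeR adjusted p = 0.000578). Bsg, the MMP inducer basigin, had 378 ± 23.5 and 376 ± 12.4 CPM and did not pass the test (edgeR adjusted p = 0.962).

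Plau, the gene of the urokinase that generates plasmin, an activator of pro-MMPs, fell from 278 ± 3.08 to 121 ± 4.71 CPM (edgeR adjusted p = 8.77e-07). The smallest adjusted p in the list belonged to Col18a1, a basement membrane collagen that is the source of endostatin (645 ± 13.9 and 25.5 ± 2.46 CPM, edgeR adjusted p = 1.05e-08), to Cd44, a hyaluronan receptor that can hold MMP9 at the cell surface (761 ± 67.5 and 126 ± 4.66 CPM, 6.34e-08), and to the serine protease gene Klk8 (44.1 ± 2.19 and 5.23 ± 0.0764 CPM, 9.28e-08). Plau, Col18a1, Cd44 and Klk8 were all lower in libraries labelled dKO. Thbs1, the most abundant tested gene of the list, which encodes thrombospondin 1, rose from 771 ± 127 to 3000.3 ± 145 CPM (edgeR adjusted p = 1.61e-06). This gene was added after its values were seen. The level summed over the list was 6006 to 6128 CPM in WT and 6196 to 6357 CPM in libraries labelled dKO. This sum holds the rise of Thbs1, whereas 13 of the 22 tested genes of the list were called lower.

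Of 39 genes listed as MMP substrates, 32 were tested. Of these, 19 were called lower (28.7% of all tested genes), 8 higher (28.6% of all tested genes) and 5 were not called. The median log2 fold change was -0.60. Lama3, a laminin chain, fell from 114 ± 7.56 to 5.71 ± 0.495 CPM (edgeR adjusted p = 2.18e-08). Cd44 is on this list too. Col4a5, a type IV collagen chain, rose from 112 ± 3.12 to 395 ± 27.9 CPM (edgeR adjusted p = 2.28e-07).

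The related ADAM and ADAMTS metalloproteinases were listed with the tolloid proteases. Of 33 genes, 21 were tested, 10 were called lower (28.7% of all tested genes), 7 higher (28.6% of all tested genes) and 4 were not called, and the median log2 fold change was 0.14. Bmp1, the procollagen C-proteinase, fell from 1238 ± 22.7 to 200.5 ± 9.94 CPM (edgeR adjusted p = 3.01e-08). Adam9 rose from 119 ± 8.25 to 364 ± 29.7 CPM (edgeR adjusted p = 9.42e-07). Adamts1, an aggrecan- and versican-cleaving protease, rose from 19.3 ± 5.93 to 637 ± 23.1 CPM (edgeR adjusted p = 1.78e-06).

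**Figure D5:**
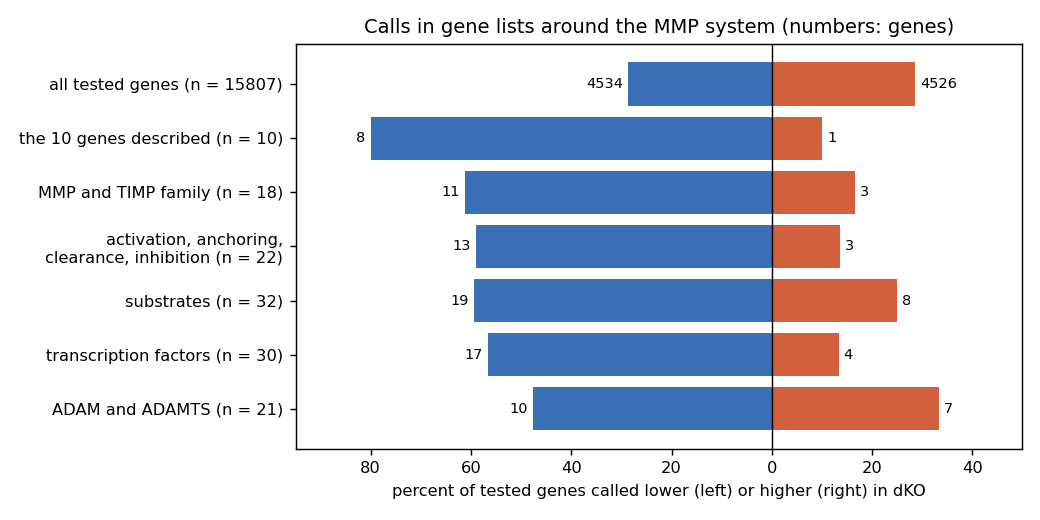
Percent of tested genes called lower (bars to the left) and higher (bars to the right) in libraries labelled dKO, with the number of genes beside each bar, for all tested genes, the 10 genes described, the MMP and TIMP family and 4 other gene lists. The family has 11 lower and 3 higher of 18 tested genes, and the ADAM and ADAMTS list has 10 lower and 7 higher of 21.

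Since several of these genes are best known from stromal and immune cells, marker lists of other cell types were summed in the same libraries. The part of such cells in the results was not tested. Among all tested genes, 28.7% were called lower and 28.6% higher. The neutrophil list, a cell type that stores MMP9, summed to 2.11 to 3.00 CPM in WT and 0 to 0.105 CPM in libraries labelled dKO. S100a9, Ly6g, Csf3r and Ngp of that list had 0 counts throughout, and the gene behind the sum was Ltf, with 2.10 ± 0.549 CPM in WT and 0 counts in libraries labelled dKO. Of the 10 listed neutrophil genes only Ltf was tested, and it was called lower.

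The list for macrophages and other leukocytes, a source of MMP12, summed to 16.2 to 53.6 CPM in WT and 82.3 to 214.5 CPM in libraries labelled dKO. Of its 14 genes 4 were tested, with 3 called higher and 1 lower. In WT most of the sum was Cd14, at 13.9, 37.2 and 12.9 CPM, which was called lower in libraries labelled dKO at 5.54 ± 0.384 CPM. In libraries labelled dKO most of it was Csf1r, which had 3.55, 14.2 and 1.01 CPM in WT and 188, 189.6 and 62.7 CPM in libraries labelled dKO. Cd68, a macrophage lysosomal protein gene, rose from 2.15 ± 0.207 to 15.6 ± 1.80 CPM, and Itgam was called higher, at 0 counts in WT and 0.375 ± 0.0790 CPM in libraries labelled dKO. Cd3e, C1qb and Tyrobp had 0 counts in every library. Adgre1, a macrophage gene that was not tested, had 0 counts in each WT library. In dKO replicates 1 to 3 it had 81, 103 and 0 counts, or 2.12, 2.53 and 0 CPM. Mmp12 had 1.49, 1.94 and 2.72 CPM in dKO replicates 1 to 3, and any part of macrophages in these values was not tested.

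The fibroblast list, which holds Mmp2, summed to 41.8 to 67.3 CPM in WT and 13.6 to 15.4 CPM in libraries labelled dKO, with 7 of 14 genes tested, 4 called higher and 3 lower. Its most abundant gene, Pdgfra, fell from 38.2 ± 8.53 to 2.40 ± 0.554 CPM. Col1a1 (12.1 ± 3.15 to 2.46 ± 0.682 CPM) and Pi16 (6.20 ± 1.51 to 0.0465 ± 0.0806 CPM) were called lower too. The 4 genes called higher were Mmp2, Postn (0.433 ± 0.482 to 6.14 ± 0.885 CPM), Col1a2 (0.0331 ± 0.0573 to 0.718 ± 0.223 CPM) and Pdpn (0 counts in WT, 0.645 ± 0.417 CPM in libraries labelled dKO). Lum, Thy1 and Dpt had 0 counts in every library. The chondrocyte and osteoblast list, cell types known for MMP13, summed to 182 to 194 CPM in WT and 63.3 to 66.8 CPM in libraries labelled dKO, with 3 of 4 tested genes of 8 called lower, Sox9 the most abundant and Sp7 at 0. The endothelial list summed to 21.7 to 25.9 CPM in WT and 3.23 to 6.14 CPM in libraries labelled dKO. There 2 of 8 genes were tested, Flt1 was called lower and was the most abundant, and Kdr, Cldn5 and Emcn had 0 counts. The mammary epithelial list summed to 4987 to 5500 CPM in WT and 4158 to 5046 CPM in libraries labelled dKO, with 3 of 7 tested genes called higher and 3 lower.

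Genes like Mmp9 in their pattern over the 6 libraries were sought among tested genes, leaving out placeholder symbols such as Gm and Rik names. The measure was the Euclidean distance of log2 CPM values, with a prior count of 2, centred on the WT mean. The nearest to Mmp9 were Eya2 (distance 1.26), Igfbp4 (1.40) and Csgalnact1 (1.57). Eya2 had 151 ± 3.55 CPM in WT and Csgalnact1 61.4, 52.8 and 65.8 CPM, and both had 0 counts in every library labelled dKO. The distances of Eya2 and Csgalnact1 therefore depend on the prior count. Igfbp4 went from 2196 ± 41.4 to 1.52 ± 0.735 CPM. For Timp3, the nearest were AA467197 (1.10), Tchh (1.24) and Ptprn (1.28), all under 1 CPM on average in both groups, of which Ptprn was called higher (edgeR adjusted p = 0.0189) and AA467197 and Tchh were not called (0.0534 and 0.0979).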

How the data were processed

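RNA-seq libraries from 6 spheroid samples, 3 WT and 3 labelled dKO, were compared. The authors deposited estimated counts for each gene, already whole and not normalized. Reads were handled with HISAT2 2.2.1 and StringTie 2.2.1 on GRCm38 (mm10), per the submitters' processing notes. How reads were assigned to genes, with which annotation and strand setting, is not given in the sources used. The deposited counts per sample equalled the series table in all 6 libraries. Counts piled up at 4 (678 to 775 genes per library at 4 counts, 273 to 367 at 5), so a read pair may add up to 4 counts and 12 counts were taken as the floor. The floor corresponded to 0.243 to 0.314 CPM, and it and the counting intervals cover counting error only. Read pairs were rounded to whole numbers before their ratios were taken. Ratios of mean CPM were 2470 for Mmp9, 36.4 for Mmp19, 40.8 for Mmp12, 13.3 for Mmp2 and 9.30 for Timp3. GENCODE M21 matched 48144 identifiers, and the 676 unmatched held 0.0293% of the counts.

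The test was edgeR 4.0.16 in R 4.3.3 (TMM, filterByExpr, robust quasi-likelihood F-test, genotype only) with Benjamini-Hochberg adjustment over 15807 tested genes, checked on simulated counts. Standard errors were derived from the fold change and its F statistic (log2 size over the root of F). Levels per length are CPM per kb of merged exons. Promoters came from RefSeq (GRCm38.p6).

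The members and gene lists were chosen with earlier results of these data known. Named by rule were the 10 members, tested family genes, the 3 genes per list with the smallest adjusted p, Reck, Bsg, Plau, Lcn2, the most abundant tested gene of each marker list, and the 3 genes nearest to the members with the largest fall and rise. A further gene named by rule is left out here. The genes flanking the cluster were taken for their position and overlapping genes for their overlap, both with their values already known, and all others were named after their values were seen. Alternatives were DESeq2 1.42.0, other normalizations, filters, thresholds and lengths, counts divided by 4, a replicate block and leaving out libraries.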

Additional observations from a re-analysis of the deposited data

How the results depend on the processing

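Of 151 values of the 9 called members under the alternatives run, 145 kept their direction and call. The exceptions were Timp1 against a 1.5-fold change (-0.81, adjusted p = 0.107) and Timp3, which was not called at an adjusted p under 0.01 (3.16), against a 1.5-fold change (3.16, adjusted p = 0.0501), or without WT replicate 2 (3.20), dKO replicate 1 (2.76) or dKO replicate 2 (3.01). Leaving out 1 library at a time gave Timp3 2.59 to 4.11 and Timp2 -0.12 to 0.03, where Timp2 changed sign without WT replicate 2 (0.027) and was not called under any alternative run. Timp3 was not tested with a minimum of 5 CPM in 3 libraries or with counts divided by 4. With that CPM filter 9 of 10 tested family genes were called, against 14 of 18 in the main fit (13 to 14 with 1 library left out). Of all genes, 7437 of the 10888 tested under that filter were called. Against a 1.5-fold change 4556 of all genes were called in place of 9060 (8041 to 9120 with 1 library left out). Lengths of the longest transcript gave MMP to TIMP ratios of 2.15 in WT and 0.363 in libraries labelled dKO.

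Deviations of same-numbered WT and dKO libraries were barely correlated (r = -0.06, 0.05 and 0.08 over tested genes). Between libraries of different number r ran from -0.13 to 0.10. With 3 libraries per group these values cannot decide whether the numbers mark a shared batch, and the labels do not say. With the replicate number as a block, 9 members and 8658 of all genes were called. Depth limits what can be said of Timp3, Mmp2 and Mmp12 in WT and of Mmp9, Mmp19 and Mmp1a in libraries labelled dKO, where counts were near or under the floor.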

Other observations

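Deviations from the group mean, on the log2 CPM scale, differed between the members in dKO replicate 3. It was the lowest of its group for the members Mmp3 (-0.93), Mmp13 (-0.76) and Timp3 (-1.34). It was the highest for the members Mmp14 (0.20), Mmp15 (0.83), Mmp19 (0.39), Timp1 (0.09) and Timp2 (0.09). Among other family genes it was the lowest for Mmp1b (-1.50) and Mmp28 (-0.90). It was the highest for Mmp11 (0.35), Mmp12 (0.44) and Mmp23 (0.56). In dKO replicate 1, the members Mmp10 (-0.19), Mmp14 (-0.11), Mmp15 (-1.15) and Mmp19 (-0.77) were the lowest of their group. Among the WT libraries, replicate 2 was the lowest for the members Mmp9 (-0.23), Mmp10 (-0.33), Mmp14 (-0.10) and Timp1 (-0.37). It was the highest for the members Mmp3 (0.33), Mmp15 (0.28) and Timp2 (0.17). With 3 libraries per group these values are given without a test.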
